A study of Homo sapiens with 6 samples.

Results

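The ELR chemokines are small secreted proteins that attract neutrophils, and 8 genes of their cluster on chromosome 4 (CXCL1, CXCL2, CXCL3, CXCL5, CXCL6, IL8, PF4 and PPBP) are described here out of 24044 named genes on the array. IL8 is the array's name for CXCL8. The 8 genes were listed by name, and the list was proposed with results of the same comparison of pLB with pLUM already known, so that their differences between the lines are given as a description without a test. All 12 of their probes were used. PF4 is grouped here by its place in the cluster, since it lacks the Glu-Leu-Arg motif that gives the others their name.

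The cells were isogenic lines derived from T47Dco, a luminal human breast cancer line, after growth as tumors in NSG mice. pLUM (pure luminal) came from a tumor of an estradiol (E) treated mouse and was sorted as CLD3+CD49f-, whereas pLB (pure luminobasal) came from a tumor of a mouse given E and progesterone and was sorted as CLD3-CD49f+. pLUM cells received 1 nM E for 72 h, and pLB cells were kept estrogen withdrawn (EWD), so that line and E treatment coincided on all arrays and cannot be told apart. Each line was a single derivation, and 3 sorts of each were hybridized to Agilent arrays carrying 1 dye. The cells had been stained for cytokeratin 5 (CK5) and sorted, and the fraction placed on the arrays is not given in the sources used here.

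ELR chemokines act through CXCR1 and CXCR2, G protein-coupled receptors of neutrophils and other leukocytes. The genes arose by duplication and lie side by side. In epithelial cells their transcription is induced by interleukin 1, tumor necrosis factor (TNF) and Toll-like receptor ligands, largely through NF-kB, and their transcripts are unstable because of AU-rich elements. PF4 and PPBP are stored by platelets, and PPBP encodes a precursor that must be cleaved to become active.

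CXCL1, CXCL2, CXCL3 and IL8 were all higher in pLB than in pLUM, and by very different amounts. CXCL5 was alike in level in both lines, and PPBP was above background in neither. CXCL6 and PF4 lay near the limit of detection in pLB. A signal is given as log2 of the probe's intensity over the 75th percentile of its array, so that 0 marks that percentile, and "well above background" is the flag of the scanner software. A gene entered the fit across all genes if a probe of it passed that flag on 3 or more of the 6 arrays, and 5 of the 8 did. Among those 5, 4 were called higher in pLB at 2-fold and an adjusted p under 0.05, and 0 lower, where 23.0% of the 16774 tested genes were called higher. CXCL1, CXCL3 and IL8 entered only because of their pLB arrays and therefore had to differ, so that nothing is read from the share.

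The stretches of promoter on which these genes resemble each other are shown first, because the cluster holds the same short site in members that differed between the lines and in members that did not. Each line gives the 100 bases before the RefSeq transcription start, 5′ to 3′ on the strand of the gene (GRCh38.p14), and capitals mark matches on either strand to the kappa-B consensus or its 9-base form GGAATTTCC, to which NF-kB dimers can bind, and to the TATA box TATAAA.
CXCL1: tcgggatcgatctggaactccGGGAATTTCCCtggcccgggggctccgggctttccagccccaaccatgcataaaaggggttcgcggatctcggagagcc
CXCL2: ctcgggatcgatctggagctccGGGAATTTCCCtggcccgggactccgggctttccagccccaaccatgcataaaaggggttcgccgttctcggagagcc
CXCL3: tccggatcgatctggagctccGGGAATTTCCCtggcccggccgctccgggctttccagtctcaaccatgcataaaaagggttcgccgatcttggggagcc
IL8: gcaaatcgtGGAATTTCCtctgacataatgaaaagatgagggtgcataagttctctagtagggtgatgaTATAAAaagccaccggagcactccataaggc
CXCL5: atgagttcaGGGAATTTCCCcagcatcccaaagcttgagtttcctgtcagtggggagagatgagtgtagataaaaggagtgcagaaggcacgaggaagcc
CXCL6: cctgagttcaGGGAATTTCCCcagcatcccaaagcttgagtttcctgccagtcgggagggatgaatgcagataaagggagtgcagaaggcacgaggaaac
PPBP: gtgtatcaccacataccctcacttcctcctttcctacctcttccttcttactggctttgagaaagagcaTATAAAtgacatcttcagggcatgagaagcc

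These windows lie at chr4:73869293-73869392 (CXCL1), chr4:74099196-74099295 (CXCL2), chr4:74038690-74038789 (CXCL3), chr4:73740469-73740568 (IL8), chr4:73998678-73998777 (CXCL5), chr4:73836578-73836677 (CXCL6) and chr4:73988191-73988290 (PPBP), with CXCL1, IL8 and CXCL6 on the plus strand and the other 4 on the minus strand. After alignment, CXCL1 and CXCL2 were identical at 95 of 100 bases, CXCL3 and CXCL1 at 90, and CXCL5 and CXCL6 at 91. GGAATTTCC occurred in 6 of the 7 windows of 250 bases before the start, and in 0.413% of 35114 such windows genome-wide. It was taken from the IL8 promoter, so that its match there was fixed in advance. The windows of CXCL1, CXCL2 and CXCL3 are near copies, as are those of CXCL5 and CXCL6, so nothing is read from this share. GGAATTTCC began 78 bases before the start in CXCL1 and CXCL3, 77 in CXCL2, 91 in IL8, 90 in CXCL5 and 89 in CXCL6. The 10-base kappa-B consensus, which overlaps this site, was found in CXCL1, CXCL2, CXCL3, CXCL5 and CXCL6, against 9.96% of all windows. CXCL5, whose level did not separate the lines, thus carried the same letters as CXCL1. An AP-1 site (TGANTCA, 6.57% of all windows) was found only in IL8 among the 7, and the C/EBP site TTGCNNAA (9.05%) only in CXCL2 and PPBP. The TATA box TATAAA (10.7%) was found only in IL8 and PPBP. Only these letters were searched, so that other forms of the AP-1, C/EBP and TATA sites would be missed. A match is a run of letters and says nothing of binding in these cells.

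CXCL1, a ligand of CXCR2 first described as a melanoma growth factor, showed the widest separation of the 8 genes. At its 3′ probe (NM_001511, chr4:74736850-74736909, hg19) the signal was -6.07, -5.83 and -5.78 in pLUM replicates 1, 2 and 3, and 4.54, 4.49 and 4.41 in pLB replicates 1, 2 and 3. The pLUM arrays all lay at background, and the pLB arrays all lay far above the 75th percentile, with an SD of 0.066. In the scanner's linear units the intensity was 7.1 to 10.3 in pLUM and 9552 to 20244 in pLB. Because the probe was well above background on no pLUM array, the difference is a lower bound, which sets the dim line, array by array, to the lowest signal that any probe well above background had there, or to the CXCL1 signal where that was larger. CXCL1 in pLB exceeded pLUM at least 929-fold, and the fitted difference was 10.37 ± 0.16 (SE, n = 3 per line) on the log2 scale.

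The 5′ probe of CXCL1 (chr4:74735646-74735705) also separated the lines, by a smaller amount. Its signal was -5.62, -7.02 and -5.51 in pLUM and 1.19, 1.35 and 1.52 in pLB, well above background on 0 and 3 arrays. The bound was at least 106-fold, with a fitted difference of 7.40 ± 0.40. Both probes of CXCL1 thus placed all pLB arrays above all pLUM arrays.

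CXCL2, a close copy of CXCL1 that also acts through CXCR2, was the other member with a strong pLB signal. Its 3′ probe (NM_002089, chr4:74962985-74963044) read -4.95, -5.91 and -5.62 in pLUM and 0.69, 1.64 and 1.54 in pLB. It was well above background on 1 pLUM array and all 3 pLB arrays, and was 110.2-fold higher in pLB (fitted log2 difference 6.78 ± 0.34). Within pLB, replicate 1 was the lowest at this probe.

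A second CXCL2 probe nearer the start of the gene (chr4:74964342-74964401) cannot be assigned to CXCL2 alone, since the array's annotation also lists the CXCL3 transcript NM_002090 for it. It read -5.61, -5.83 and -4.96 in pLUM and -0.26, 0.09 and 0.42 in pLB, again with replicate 1 lowest within pLB. It was 46.9-fold higher in pLB (5.55 ± 0.28 on the log2 scale). The probe sequences are shown, in lower case and 5′ to 3′, because they are where cross-hybridization between the copies could arise.
CXCL1, 5′ probe: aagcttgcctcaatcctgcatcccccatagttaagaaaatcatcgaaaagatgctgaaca
CXCL2, probe shared with CXCL3: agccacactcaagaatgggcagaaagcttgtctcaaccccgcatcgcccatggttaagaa

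Slid along each other without gaps, these probes overlapped by 37 bases, of which 32 were identical, and their longest run in common was 8 bases. No pair among the 12 probes shared a run of more than 9 bases. The probes were compared only with each other and not with the transcripts of the other copies, so cross-hybridization was not tested.

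CXCL3, the third close copy, separated the lines less widely. The probe (NM_002090, chr4:74902702-74902761) read -7.27, -7.54 and -7.50 in pLUM and -3.08, -2.58 and -3.21 in pLB. All 3 pLB arrays and no pLUM array were well above background. For CXCL3 pLB exceeded pLUM at least 5.36-fold, with a fitted difference of 4.48 ± 0.21. IL8, a ligand of both CXCR1 and CXCR2, followed. Its probe in NM_000584 (chr4:74609265-74609324) read -7.39, -7.60 and -7.56 in pLUM and -3.54, -3.96 and -3.84 in pLB. IL8 exceeded pLUM at least 3.03-fold, with a fitted difference of 3.74 ± 0.18, and here replicate 1 was the highest of the pLB arrays. The other IL8 probe, designed to ENST00000401931 (chr4:74607982-74608041), was well above background on 1 pLB array only and was not tested. It read -5.89, -7.47 and -7.45 in pLUM and -5.78, -4.95 and -4.56 in pLB. No lower bound is given, since the pLB mean includes arrays on which this probe was not well above background.

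How far CXCL3 and IL8 differed depended on the background correction. The intensities behind their pLB signals were 48.6 to 116 for CXCL3 and 31.4 to 74.9 for IL8. After normexp correction, which adds 50 intensity units to every spot, the difference of CXCL3 was 0.63 and that of IL8 0.29 on the log2 scale, and neither was called. CXCL1 at 7.07 and CXCL2 at 3.86 were called under the same correction. The IL8 probe that was not tested stood at -0.29 under it. On slide 1, which held the 3 pLUM arrays and pLB replicate 1, the log2 differences were 10.43 for CXCL1, 6.18 for CXCL2, 4.36 for CXCL3 and 3.98 for IL8.

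**Figure D1:**
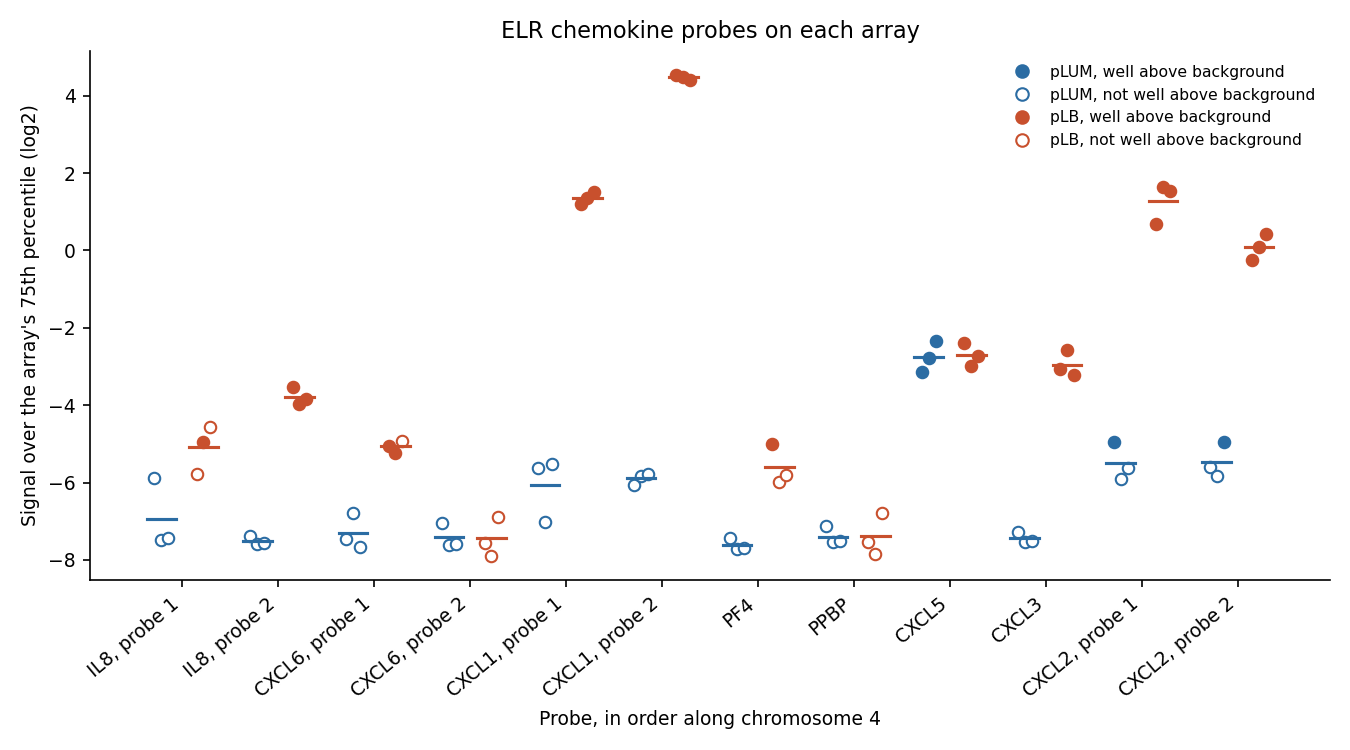
Signal of the 12 ELR chemokine probes on each array, as log2 over the 75th percentile of the array, with probes in order along chromosome 4 and bars at the mean of 3 arrays per line. Filled points are well above background. The pLB points of both CXCL1 and both CXCL2 probes sit far above the pLUM points, CXCL5 overlaps between the lines, and PPBP lies at background on all 6 arrays.

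CXCL5, an epithelial chemokine for CXCR2, was the only member well above background on every array of both lines. Its probe (NM_002994, chr4:74861898-74861957) read -3.13, -2.78 and -2.34 in pLUM and -2.38, -3.0 and -2.72 in pLB. The lines overlapped, and the fitted difference was 0.049 ± 0.26. CXCL6, whose promoter resembles that of CXCL5, read -7.45, -6.80 and -7.66 in pLUM and -5.05, -5.23 and -4.91 in pLB (NM_002993, chr4:74703368-74703427). It was well above background on 2 pLB arrays and no pLUM array and was not tested. The lines did not overlap. No lower bound is given, since the pLB mean includes an array on which the probe was not well above background. After normexp correction the log2 difference of this probe was -0.20. A further CXCL6 probe, designed to ENST00000503446 (chr4:74714496-74714555), was well above background on no array, with signals from -7.89 to -6.88.

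The platelet members were PF4 and PPBP. PF4 (NM_002619, chr4:74846915-74846974) read -7.44, -7.71 and -7.68 in pLUM and -5.01, -5.99 and -5.80 in pLB, and only pLB replicate 1 was well above background. No bound can be given, since the pLB mean lay below the lowest signals called above background. PPBP (NM_002704, chr4:74853299-74853358), the member with 10 spots per array, was well above background on no array, and its signals of -7.55 to -7.13 in pLUM and -7.85 to -6.79 in pLB overlapped. Without the filter on dim probes, CXCL6 at 2.23 and PF4 at 2.01 on the log2 scale were also called higher, and PPBP at 0.0047 was not. After normexp correction CXCL6 and PF4 were at -0.20 and -0.24. Of 6 markers of platelets, 4 were tested, 0 were called higher in pLB and 2 lower (ITGA2B at -2.78 and GP6 at -2.15), where 23.0% and 23.5% of all tested genes were, and their summed signal, as a multiple of the 75th percentile, was 0.483 to 0.552 in pLUM and 0.128 to 0.253 in pLB. SELP and TUBB1 were well above background on no array. The part of platelet RNA in the PF4 signal was not tested.

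Over the 12 probes, 9 placed every pLB array above every pLUM array, which 25.4% of all probes on the array did. The 3 that overlapped between lines were those of CXCL5 and PPBP and the second CXCL6 probe. Among the 9 were the untested IL8 probe, the first CXCL6 probe and the PF4 probe, all too dim to test. After normexp correction these were at -0.29, -0.20 and -0.24. The members were listed with this comparison known, so that nothing is read from the share. On arrays of sorted cells, fewer cells that make a transcript and less of it per cell cannot be told apart. The genes most like CXCL1 over the 6 arrays, each profile centred on its own mean, were PLAT, NIPAL4 and LY6K. Their root mean square differences were 0.15, 0.15 and 0.22 on the log2 scale among 16769 genes. CXCL1 and these genes were well above background on no pLUM array, so that this likeness is one of signals and not of known folds. The genes most like IL8 were STC1, SCARA3 and BDKRB2, at 0.10, 0.11 and 0.11. IL8 and STC1 were at background in pLUM, whereas SCARA3 and BDKRB2 were well above it on all 3 pLUM arrays, so that the likeness to IL8 is one of signals and not of known folds. None of the 6 is on chromosome 4.

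The cluster was then read in the order of the chromosome. The member probes span 356.4 kb (chr4:74607982-74964401, hg19), and 14 other named genes had a probe within 1 Mb of them. Of these, 9 were tested, 5 were called higher in pLB and 0 lower, where 23.0% and 23.5% of all tested genes were. The 5 were PF4V1, EPGN, EREG, AREG and BTC. PF4V1, EPGN and EREG were tested only because of their pLB arrays and therefore had to differ, so that nothing is read from this share.

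PF4V1, a copy of PF4 that lies within the cluster 5.6 kb from a CXCL6 probe, read -7.36, -7.70 and -7.67 in pLUM and -3.90, -4.42 and -4.64 in pLB. It exceeded pLUM at least 2.08-fold (3.26 ± 0.23, adjusted p = 2.4e-05), and was not called after normexp correction (0.051). Its probe and that of PF4 shared no run longer than 6 bases, but neither was compared with the transcript of the other gene. The remaining 4 lie beyond CXCL2 and encode ligands of the epidermal growth factor receptor. EPGN was at least 28.8-fold higher (7.04 ± 0.16, adjusted p = 2.9e-07) and EREG at least 29.6-fold higher (7.13 ± 0.17, adjusted p = 3.1e-07). AREG, which was above background in both lines, was 28.6-fold higher (4.84 ± 0.24, adjusted p = 4.5e-06), and its second probe was 26.0-fold higher. BTC was 5.95-fold higher (2.57 ± 0.29, adjusted p = 0.00021), and after normexp correction it was not called (0.55).

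Between CXCL2 and these ligands lies MTHFD2L, a mitochondrial folate enzyme, whose probes disagreed. The probe designed to ENST00000490698 (chr4:74991174-74991233), 26.8 kb from CXCL2, read -7.58, -7.76 and -7.76 in pLUM and -3.13, -2.57 and -2.01 in pLB, and exceeded pLUM at least 7.01-fold in pLB (5.13 ± 0.28, adjusted p = 7.6e-06). The probe in NM_001144978 at chr4:75168172-75168231 gave -0.046 ± 0.32 (adjusted p = 0.91). It represents the gene here only because its mean over the 6 arrays was marginally higher (-5.129 against -5.134). On the other side of IL8, RASSF6 (-0.95 ± 0.42, adjusted p = 0.085) and ANKRD17 (-0.31 ± 0.21, adjusted p = 0.23) were not called, although RASSF6 was called lower without pLB replicate 3 (-1.30, adjusted p = 0.022). LOC541467, which lies between the MTHFD2L probes, was not called either (0.20 ± 0.27, adjusted p = 0.54). COX18, ALB, AFP, AFM and PPBPL2 were well above background on no array. Within the cluster and beyond CXCL2, genes called higher stood beside genes that were not. Beyond IL8 only RASSF6 and ANKRD17 were tested, too few to read an order along the chromosome.

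**Figure D2:**
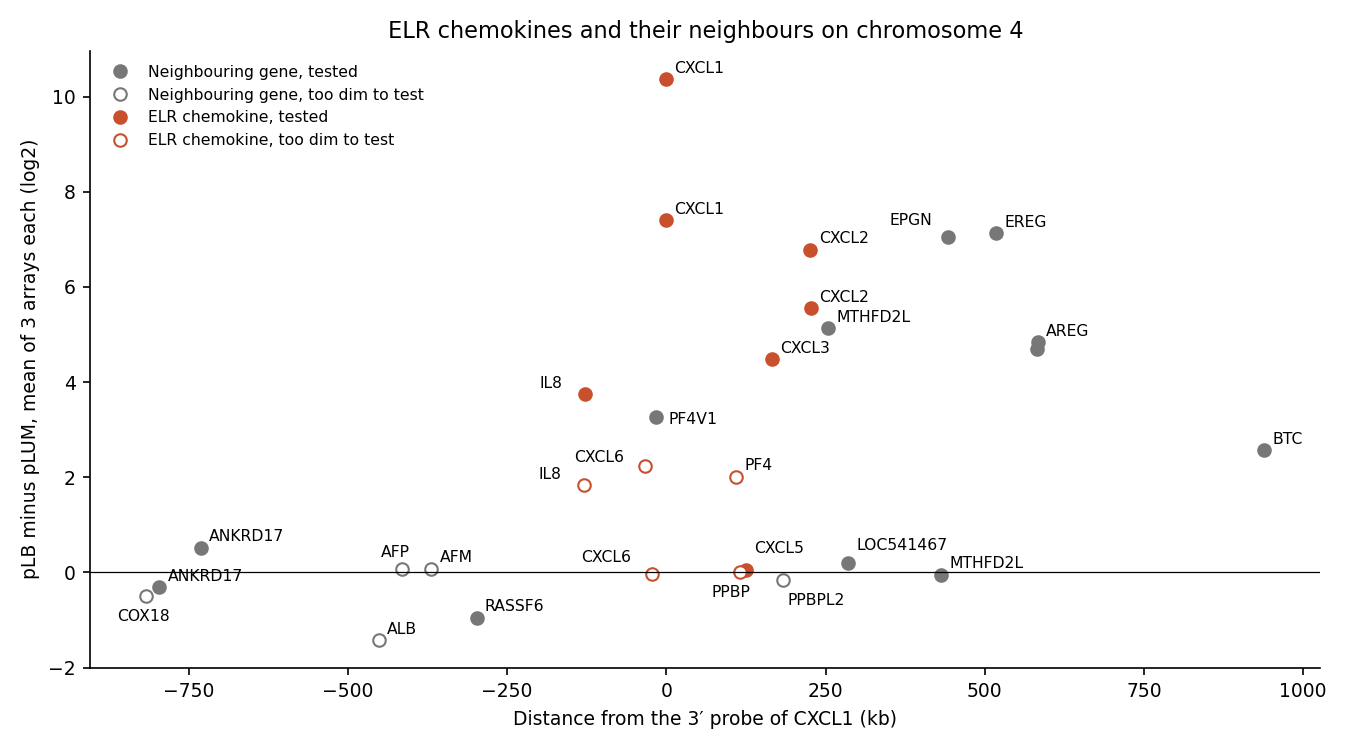
Difference between the mean pLB and mean pLUM signal (log2, n = 3 arrays per line) of each probe against its distance in kb from the 3′ probe of CXCL1. Open circles are probes too dim to test. CXCL1, CXCL2, CXCL3 and IL8 stand above CXCL5 and PPBP, which lie near 0 between them, and EPGN, EREG, AREG and BTC form a second group of high differences between 442 and 939 kb.

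The receptors of these chemokines were not detected in either line. CXCR1, CXCR2 and the scavenging receptor ACKR1 (DARC on the array) were well above background on none of the 6 arrays. The highest single signal was -5.03 for CXCR1, -5.81 for CXCR2 and -5.62 for ACKR1, at or near the detection limits of the arrays (-5.70 to -4.75). Chemokines of this family also bind heparan sulfate on cell surface proteoglycans. Of 5 tested proteoglycans, 4 were called higher in pLB, beside 23.0% of all tested genes. SDC1, the main syndecan of epithelia, rose 64.9-fold (6.02 ± 0.24, adjusted p = 1.7e-06) and GPC1 rose 3.49-fold (1.80 ± 0.21, adjusted p = 0.00024). SDC3 (1.68 ± 0.48, adjusted p = 0.018) and SDC4 (1.05 ± 0.24, adjusted p = 0.0069) were also called, but SDC3 was not without pLUM replicate 1 (adjusted p = 0.061) or on slide 1 alone (0.92, adjusted p = 0.066), and SDC4 fell under 2-fold without pLUM replicate 1 or pLB replicate 1 or 2 (0.97, 0.98 and 0.90). CD44 was not called (0.61 ± 0.18), and SDC2 was well above background on no array.

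Other chemokines differed in both directions. Of 9 other CXC chemokines, 4 were tested. CXCL14, a chemokine of skin and other epithelia, rose 531-fold in pLB (9.05 ± 0.18, adjusted p = 2.1e-07), and CXCL16, which is membrane-bound, rose 2.43-fold (1.28 ± 0.15, adjusted p = 0.00023) at 1 probe and was not called at the other (0.68 ± 0.18). PF4V1 rose as described. CXCL12, the ligand of CXCR4, was lower in pLB at all 4 of its tested probes, by amounts that differed widely. Its brightest probe, well above background on 2 pLB arrays, was 215-fold lower (-7.75 ± 0.41, adjusted p = 5.8e-06), and the only one above background on all 6 arrays was 26.7-fold lower (-4.74 ± 0.32, adjusted p = 1.9e-05). The interferon-induced CXCL9, CXCL10 and CXCL11 were well above background on no array, and nor were CXCL13 and CXCL17. Of 8 CC and CX3C chemokines, 2 were tested. CCL28, of mucosal epithelia, was at least 9.93-fold lower in pLB (-5.47 ± 0.24, adjusted p = 2.8e-06), and CCL2, which attracts monocytes, was not called (0.75 ± 0.25, adjusted p = 0.032).

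The cytokines and receptors that induce ELR chemokines were divided. Of 16 tested, 8 were called higher in pLB, 4 lower and 4 neither, beside 23.0% higher and 23.5% lower among all tested genes. The 4 with the largest fitted differences were TLR2, a receptor for bacterial lipopeptides (at least 5.57-fold, 4.60 ± 0.26, adjusted p = 7.9e-06), IL1RAP, the shared subunit of interleukin 1 receptors (20.2-fold, 4.34 ± 0.15, adjusted p = 1.1e-06), and the cytokines IL1B (at least 2.77-fold, 3.53 ± 0.20, adjusted p = 8.7e-06) and IL1A (at least 1.72-fold, 2.96 ± 0.21, adjusted p = 2.1e-05). TLR3, LTB (5.20-fold), TNFRSF1A (4.37-fold) and IL17RA (3.99-fold) were the other 4, and the bounds of IL1B and IL1A do not show that these exceeded them. The 4 lower were TNF itself, at least 13.4-fold lower in pLB (-4.93 ± 0.20, adjusted p = 1.9e-06), TLR5, the flagellin receptor, at 1 of its 2 probes (14.1-fold, -3.82 ± 0.22, adjusted p = 9.7e-06), and the interleukin 17 receptor subunits IL17RC (10.7-fold, -3.42 ± 0.19, adjusted p = 8.2e-06) and IL17RE (4.27-fold, -2.09 ± 0.23, adjusted p = 0.00019). The other TLR5 probe passed the background flag on 6 of 6 arrays and was not called (-0.29 ± 0.26, adjusted p = 0.35), and of 3 IL17RA probes only the brightest was. TLR2, IL1B and IL1A passed the filter through pLB alone and TNF through pLUM alone, so that these had to differ. After normexp correction TLR2 (0.65), IL1B (0.12), IL1A (-0.071) and TLR3 (0.36) were not called. TLR3 also lost its call without pLUM replicate 3, pLB replicate 1 or pLB replicate 2 (adjusted p = 0.065, 0.051 and 0.062) and on slide 1 alone (adjusted p = 0.11).

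Few NF-kB and C/EBP regulators passed both thresholds. All 15 were well above background on all 6 arrays, and 2 were called higher and 0 lower, beside 23.0% and 23.5% of all tested genes. The differences of the 15 went in both directions (-0.94 to 2.33), with a median of 0.084 where that of all tested genes was 0.029. Of the 15, 3 had every pLB array above every pLUM array, beside 25.4% of all probes. Another 3 had every pLB array below, for which no share of all probes was computed, so that nothing is read from these counts. RELB, a subunit of NF-kB, rose 5.04-fold (2.33 ± 0.15, adjusted p = 1.3e-05), and CEBPB, a factor that acts with NF-kB on IL8, rose 2.61-fold (1.39 ± 0.15, adjusted p = 0.00017). The subunits RELA (0.38 ± 0.32) and NFKB1 (0.94 ± 0.23) and the inhibitor NFKBIA (0.13 ± 0.16) were not called. NFKB1 was called without pLUM replicate 3 or pLB replicate 3 (1.07 and 1.14) and after spike-in scaling (1.19), and stood at 1.19 on slide 1 alone. NFKBIB (1.33 ± 0.51, adjusted p = 0.053) was called without pLUM replicate 3 (1.98) and under several other scalings, filters and probe rules (1.06 to 1.58). NFKBIZ (-0.20 ± 0.36) stood at -1.02 on slide 1 alone. In the other direction, BCL3 (-0.94 ± 0.19, adjusted p = 0.0036) and CHUK (-0.82 ± 0.17, adjusted p = 0.0039) were lower by less than 2-fold. BCL3 was called lower without pLUM replicate 2 (-1.04) or pLB replicate 3 (-1.02) and after quantile normalization (-1.04). It stood at -1.09 on slide 1 alone. A dimmer probe of the kinase IKBKB was also lower (-1.98 ± 0.27, adjusted p = 0.00051), where its brightest probe was not called (-0.68 ± 0.37). That brightest probe was called lower after quantile normalization (-1.03), as was the mean of the IKBKB probes (-1.21). Beside 23.0% and 23.5% of all tested genes, 4 of 9 regulators of mRNA stability were called higher and 0 lower. These were ZFP36L2, which destabilizes AU-rich transcripts (8.32-fold, adjusted p = 1.4e-05), TRAF3IP2, the interleukin 17 adaptor Act1 (5.01-fold, adjusted p = 0.00019), ARID5A (4.55-fold, adjusted p = 3.8e-05, at 1 of 2 probes) and ELAVL1, which stabilizes such transcripts (2.45-fold, adjusted p = 0.00024). ZFP36, the best known destabilizer, gave 0.23 ± 0.16 and was not called. Dimmer probes of HNRNPD (-1.36) and ZFP36L1 (-1.58), whose brightest probes were not called, were lower in pLB. The list thus held called genes of opposite roles.

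Other genes that the same cytokines induce were called in both directions. Of 14 tested, 9 were called higher and 2 lower, beside 23.0% and 23.5% of all tested genes, and the median log2 difference was 1.89. PTGS2 passed the filter through pLB alone and had to differ, so that nothing is read from the share. After normexp correction LCN2 (0.66) and SAA1 (0.11) were not called. PTGS2, the inducible cyclooxygenase, was at least 20.8-fold higher (6.44 ± 0.17, adjusted p = 4.2e-07), ICAM1, the leukocyte adhesion molecule, was 16.6-fold higher (4.06 ± 0.17, adjusted p = 2.1e-06), and LIF, a cytokine of the interleukin 6 family, was 12.9-fold higher (3.69 ± 0.20, adjusted p = 7.0e-06) at its brighter probe and not called at the other (0.82 ± 0.57). SAA1, an acute phase protein, was called at 2.67 ± 0.85 (adjusted p = 0.027) but not without pLUM replicate 1 or 3 or pLB replicate 1 (adjusted p = 0.085, 0.096 and 0.056). TNFAIP3, TNIP1, LCN2, SOD2 and S100A9 were the other 5. S100A8, a calcium-binding protein abundant in neutrophils, was 3.09-fold lower in pLB (-1.63 ± 0.18, adjusted p = 0.00019), and TNFAIP2 was 2.38-fold lower (-1.25 ± 0.20, adjusted p = 0.0013), and just under 2-fold after scaling on spike-in probes. IL6, CSF3 and SAA2 were well above background on no array. Among 8 proteases that cleave chemokines, 2 were tested. MMP9 was 2.35-fold higher (1.23 ± 0.15, adjusted p = 0.00036), and ANPEP, which trims chemokines at their amino terminus, was 3.48-fold lower (-1.80 ± 0.57, adjusted p = 0.028). ANPEP was not called when any pLUM replicate or pLB replicate 2 was left out (adjusted p = 0.054, 0.086, 0.055 and 0.052).

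Over these 9 lists, 67 of 96 genes were tested, and 31 were called higher and 9 lower in pLB, or 46.3% and 13.4%, beside 23.0% and 23.5% of all tested genes. Of these calls, 5 higher (PF4V1, IL1A, IL1B, TLR2 and PTGS2) and 2 lower (CCL28 and TNF) were of genes that passed the filter through 1 line alone and had to differ, and the lists were drawn up with results of these arrays known, so that nothing is read from the shares. After normexp correction 20 were called higher. KHSRP joined them, and SDC3, SDC4, PF4V1, CXCL16, IL1A, IL1B, TLR2, TLR3, ELAVL1, LCN2, SAA1 and MMP9 were lost, as was ANPEP among the lower genes.

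**Figure D3:**
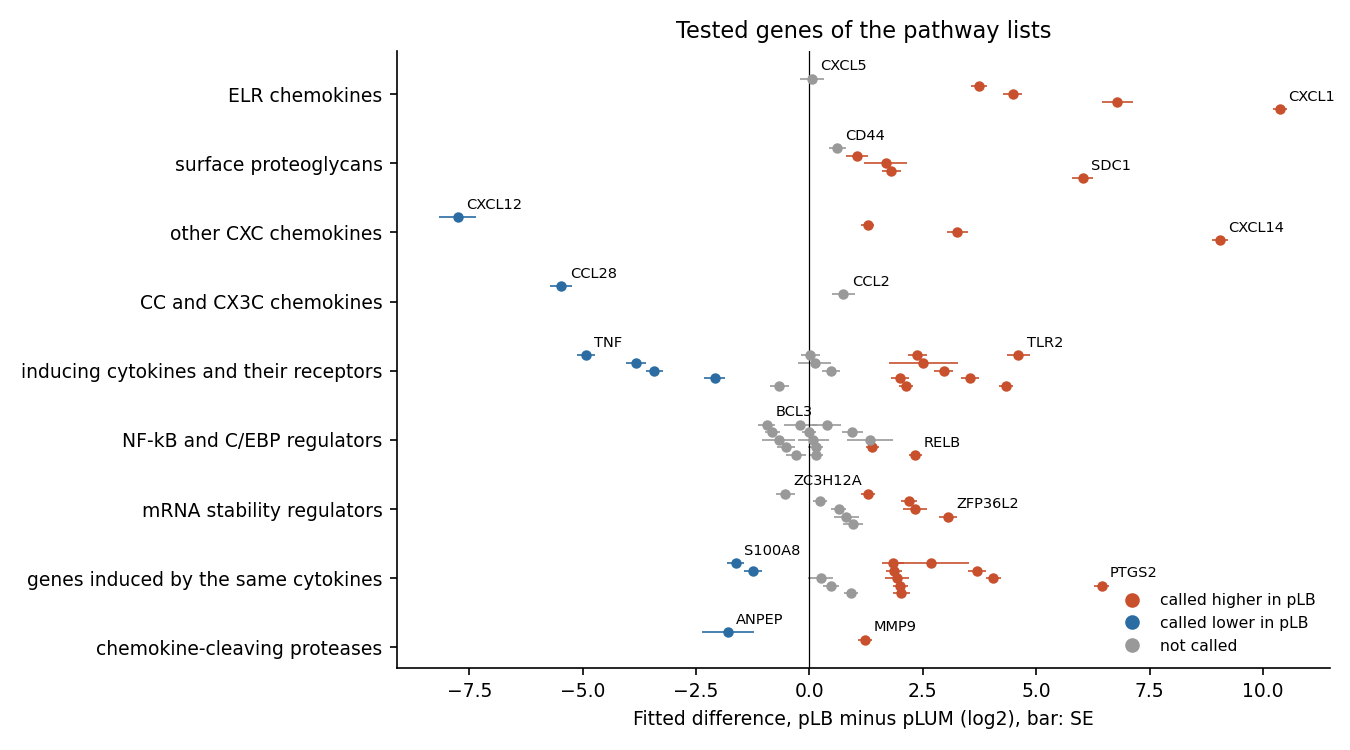
Fitted log2 difference (pLB minus pLUM) of each tested gene of the ELR chemokine and pathway lists, with bars for the SE and n = 3 arrays per line. The NF-kB and C/EBP regulators lie between BCL3 at -0.94 and RELB at 2.33, whereas the inducing cytokines and their receptors spread from TNF at -4.93 to TLR2 at 4.60.

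Of 8 luminal markers 7 were called lower in pLB, and of 8 basal markers 8 higher, beside 23.5% and 23.0% of all tested genes. KRT5, KRT14, TP63 and SNAI2 passed the filter through pLB alone and PGR through pLUM alone, so that these had to differ. CLDN3 and ITGA6 (CD49f) were the sorting markers of the lines, so that nothing is read from these shares. KRT8 was lower at its brightest probe, but 1 of its 3 probes was called higher. Of 6 tested markers of neutrophils and monocytes, 1 (CD68, 1.52 ± 0.19, adjusted p = 0.00039) was higher in pLB. The summed signal of the 7 on the array was 0.341 to 0.474 in pLUM and 0.374 to 0.556 in pLB, which overlapped. MPO was well above background on no array. PTPRC was above background on all 6 at its brightest probe without a call (-0.47 ± 0.47), but the other of its 2 tested probes was called lower in pLB. Of 4 tested stromal and endothelial markers, 2 were called higher in pLB, beside 23.0% of all tested genes. These were COL1A2 (at least 11.5-fold) and VWF (at least 1.80-fold). Both passed the filter through pLB alone and had to differ, so that nothing is read from this share. COL1A1 (-0.56 ± 0.28) and CDH5 (0.51 ± 0.37) were not called, and COL3A1, DCN, PDGFRB and PECAM1 were well above background on no array. The summed signal of that list was 0.862 to 1.03 in pLUM and 0.868 to 1.33 in pLB, which overlapped. The part of such cells in the results was not tested.

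**Figure D4:**
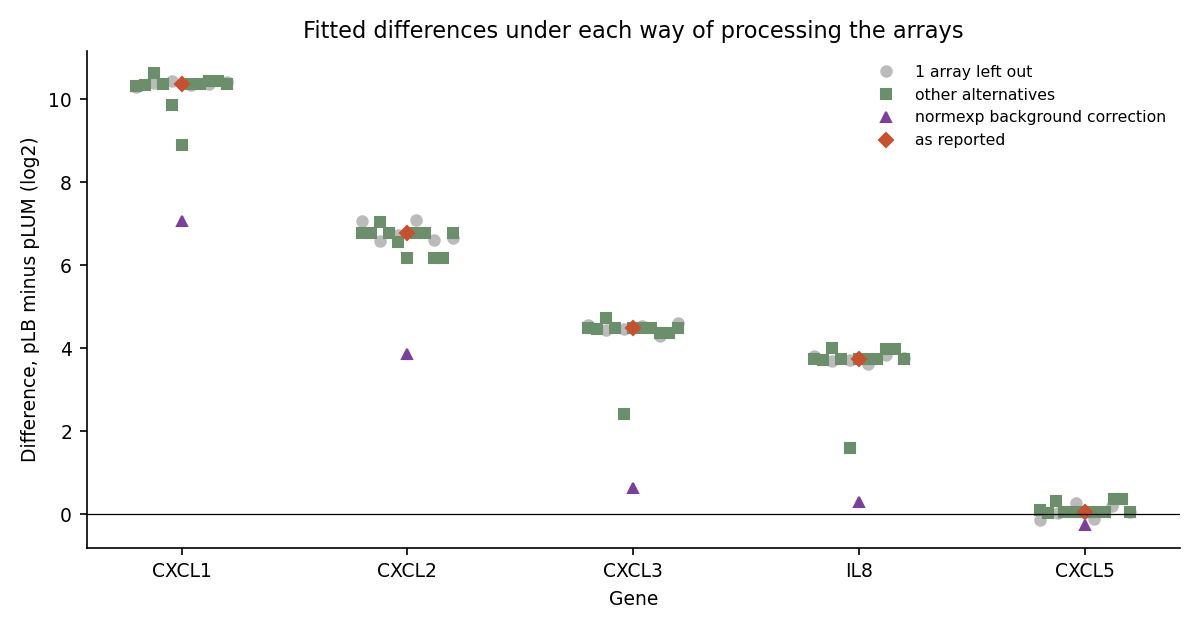
Log2 difference (pLB minus pLUM) of the 5 tested ELR chemokine genes under each way of processing the arrays, with 1 point per alternative. Normexp correction gives the lowest value for each gene, and brings CXCL3 to 0.63 and IL8 to 0.29. CXCL5 stays between -0.27 and 0.37.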

How the data were processed

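For each of 3 pLUM and 3 pLB arrays the authors deposited Agilent Feature Extraction output (version 10.10.1.1), in which the intensity of a spot is linear, corrected for background on its own array, and not scaled between arrays. Gene names and probe positions (hg19) are those of the files. Each intensity was divided by the 75th percentile of its array (449 to 869 units) and expressed as log2. Control spots and outlier spots (296 to 387 an array) were removed before a probe's spots were averaged, and none was saturated. Of 34127 probes, 23105 carried the flag for signal well above background on 3 or more arrays. These were fitted in R 4.3.3 with limma 3.58.1 (functions lmFit and eBayes), with Benjamini-Hochberg adjustment over all tested probes. A gene was represented by its brightest tested probe. The labels do not state that sorts came from separate cultures, so p-values measure only the spread between these arrays, whose number limits the precision.

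Slide 1 held the pLUM arrays and pLB replicate 1, and slide 2 held pLB replicates 2 and 3. The members, gene lists and tests were chosen with earlier results of these data known. Genes named were all members, neighbours (probes within 1 Mb) and receptors, up to 4 called genes per list and direction with the largest differences, and genes at issue for a small count. Genes named beyond this rule were chosen after their values were seen. Promoter windows are from RefSeq (GRCh38.p14), which matched 7 of 8 members. Alternatives were other background corrections, scalings, filters, thresholds and probe rules, slide and replicate blocks, the methods' t-test, and leaving out each array.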

Additional observations from a re-analysis of the deposited data

How the results depend on the processing

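The 4 members called higher in pLB (CXCL1, CXCL2, CXCL3 and IL8) were called in every setting in which they were tested except normexp correction, which left 2 of them, 20 listed genes higher against 31, and 3 neighbours against 5. Under it CXCL3 was at 0.63 and IL8 at 0.29 on the log2 scale, and IL1A turned to -0.071. When a probe had to be well above background on all 6 arrays, CXCL5 was the only member left to test, so that 0 members were called, with 5 listed genes lower against 9 and 1 neighbour higher (AREG). Averaging the probes of a gene turned MTHFD2L to 2.54 and put CXCL16 and IL17RA under 2-fold. Requiring all 6 arrays replaced the TLR5 probe by one at -0.29. With 1 array left out, 4 members, 28 to 32 listed genes higher, 8 to 10 lower and 5 neighbours were called, and the log2 difference was 10.28 to 10.43 for CXCL1, 6.58 to 7.08 for CXCL2, 4.29 to 4.61 for CXCL3, 3.62 to 3.83 for IL8 and -0.14 to 0.26 for CXCL5. Replicate numbers did not pair the arrays (correlation of deviations -0.27, -0.10 and -0.22 for the same number), and the fit with a replicate block called 4 members, 31 listed genes higher, 9 lower and 5 neighbours. With the slide as a block, the difference rests on pLB replicate 1. Scaling on the spike-in probes moved the median gene by 0.25 on the log2 scale and left the 4 members called. Signals near the detection limit have no order among themselves.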
